A study of Mus musculus with 8 samples.

Results

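The genes described here are 10 regulators and markers of leukaemic stem and progenitor cells, namely Kit, Flt3, Cd34, Gata2, Myb, Runx1, Erg, Meis1, Pbx3 and Mecom, chosen by name out of 49550 genes of the RefSeq table on the mouse autosomes and X. The assay was RRBS (reduced representation bisulfite sequencing), which cuts DNA at CCGG sites and reads CpG cytosines near the cuts after bisulfite treatment. All 8 libraries came from I1DN leukaemic progenitors, sorted as cKit+ and Cd11b- from transplanted mice, and the labels do not spell out I1DN or say whether mice were pooled. The groups were AG120_AZA (both drugs, called the combination below), AG120 (ivosidenib, which inhibits mutant IDH1), AZA (azacitidine, which inhibits DNA methyltransferases) and Vehicle, with 2 libraries each and a labelled treatment time of 5 days. The design asks whether either drug, or both together, changed methylation at these genes.

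Methylated CpGs at a gene's start usually accompany silence of that gene, whereas methylation inside the body of a gene is common in genes that are used. Mutant IDH1 makes a metabolite that blocks the TET enzymes, which remove methylation, and azacitidine traps the enzymes that copy it at cell division. Kit and Flt3 encode growth factor receptors of early blood cells, and Cd34 encodes a surface protein of progenitors. Gata2, Myb, Runx1 and Erg encode transcription factors that stem cells need, Meis1 and Pbx3 encode partners of HOX proteins that act together in leukaemia, and Mecom encodes the stem cell regulator also known as Evi1. The sort selected cells on the Kit protein. RNA was not analysed here, so the cell type of the label was not checked against marker expression.

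Of 4003423 CpG cytosine positions on these chromosomes, 4553 lay in the 10 genes or within 2000 bp of them. For each gene, reads were summed over each gene end (1000 bp outside to 500 bp inside), the rest of the gene and the outer flanks, and a unit was kept when every library had at least 20 reads in it. This left 17 of 50 units, made up of 8 of 20 gene ends, 9 gene bodies and 0 of 20 flanks, among 34575 kept units of all genes. Runx1 and Erg had a kept body and no kept end, Cd34 had a kept end and no kept body, and the other 7 genes had both. Of the ends not kept, 11 held no read at all. In the 7 genes other than Pbx3 with a kept end, that end held a RefSeq start or lay beside it, and for Pbx3 no start was in the sequence table.

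The sequences below are the 250 bases before 5 RefSeq starts, shown to set the CpGs and CCGG sites of a promoter beside the CpGs that were read. They are from RefSeq on GRCm38.p6 (the coordinates of mm10), written along the gene's strand, with capitals marking each CpG that at least 1 library read. Cd34 is chr1:194938571-194938820 on the plus strand, Flt3 is chr5:147400490-147400739 on the minus strand, and the second Gata2 start is chr6:88198414-88198663 on the plus strand. The distal Runx1 start is chr16:92826075-92826324 and the proximal one chr16:92697330-92697579, both on the minus strand.
Cd34: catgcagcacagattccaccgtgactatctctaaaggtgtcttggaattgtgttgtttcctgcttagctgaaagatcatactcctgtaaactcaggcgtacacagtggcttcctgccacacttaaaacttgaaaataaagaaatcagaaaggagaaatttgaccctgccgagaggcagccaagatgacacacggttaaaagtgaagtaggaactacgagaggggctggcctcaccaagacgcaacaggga
Flt3: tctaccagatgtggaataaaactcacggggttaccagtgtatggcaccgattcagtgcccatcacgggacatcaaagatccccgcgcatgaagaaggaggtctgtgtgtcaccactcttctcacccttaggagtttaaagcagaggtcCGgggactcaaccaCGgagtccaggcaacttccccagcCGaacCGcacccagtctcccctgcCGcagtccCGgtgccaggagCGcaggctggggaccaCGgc
Gata2, second start: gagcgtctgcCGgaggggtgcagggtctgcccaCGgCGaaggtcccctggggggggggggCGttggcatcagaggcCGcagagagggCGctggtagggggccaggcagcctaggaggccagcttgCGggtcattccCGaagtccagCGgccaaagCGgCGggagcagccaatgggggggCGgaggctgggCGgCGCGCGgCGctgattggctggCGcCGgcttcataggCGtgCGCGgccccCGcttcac
Runx1, distal start: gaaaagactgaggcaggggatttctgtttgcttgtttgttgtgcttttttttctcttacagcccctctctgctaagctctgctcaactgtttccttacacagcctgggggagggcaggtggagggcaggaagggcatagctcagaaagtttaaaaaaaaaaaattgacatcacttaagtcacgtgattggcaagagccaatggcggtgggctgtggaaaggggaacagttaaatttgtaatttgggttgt
Runx1, proximal start: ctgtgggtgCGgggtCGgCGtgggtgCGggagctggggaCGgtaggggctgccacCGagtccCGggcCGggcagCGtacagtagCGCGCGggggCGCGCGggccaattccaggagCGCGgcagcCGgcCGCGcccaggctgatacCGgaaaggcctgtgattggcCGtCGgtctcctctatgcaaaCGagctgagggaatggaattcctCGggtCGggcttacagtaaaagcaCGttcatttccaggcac
The distal Runx1 promoter held 2 CpGs and 0 copies of CCGG, and none of its CpGs was read, whereas the proximal one held 27 CpGs and 4 copies of CCGG, and 27 CpGs were read. Cd34 had 6 CpGs, 0 copies of CCGG and 0 CpGs read. Flt3 had 8 of 13 CpGs read, close to the start, and the second Gata2 start had 23 of 24. CCGG, which reads the same on both strands, was present in 47.3% of the 32585 mouse promoters in the RefSeq table, whose median was 6 CpGs in the 250 bases. In the 250 bases before the 3 Erg starts and before the longest Mecom start, no CpG was read either. The most downstream Erg start had 1 copy of CCGG and no CpG read, while the short Mecom start had 0 copies and 1 CpG read.

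At 3 of these promoters the bases read were almost free of methylation in every group. The proximal Runx1 promoter had 0% in the combination libraries (70 and 137 reads), 0% in the AG120 libraries (68 and 1065 reads), 0% and 2.34% in the AZA libraries (493 and 942 reads) and 0% in the Vehicle libraries (558 and 312 reads). The second Gata2 promoter was at or under 1.72% in the 7 libraries that read it, and the combination replicate 1 had no read there. Flt3 upstream of its start stood at 0% in 6 libraries, at 0.0333% in AG120 replicate 1 and at 1.68% in Vehicle replicate 2. Single libraries stood higher at other promoters, with 14.4% at Meis1 in combination replicate 2, 15 of 15 reads at 1 Kit CpG of the same library, 7.82% at Myb in AG120 replicate 2 and 11.9% at the first Gata2 start in AZA replicate 1, while the other libraries with at least 20 reads had at most 3.27% there. The 1 CpG read before the short Mecom transcript's start had 98.8% in combination replicate 1, 100% in AG120 replicate 1, 93.4% and 0% in AZA and 8.80% and 0% in Vehicle.

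CpG calls per library over all positions on these chromosomes ranged from 90158614 to 130580155. Member positions with at least 10 reads numbered 835 and 793 in the combination libraries, 930 and 959 in the AG120 libraries, 1125 and 1038 in the AZA libraries, and 1234 and 1251 in the Vehicle libraries. The 4 libraries with AG120 thus read fewer member positions than the 4 without it, and the same held over all positions on these chromosomes. Those with any read numbered 1395754 and 1385473 in the combination and 1562770 and 1748803 in AG120. In AZA they numbered 1830006 and 1883824, and in Vehicle 1993327 and 1912175. Whether this difference in coverage bears on the differences below was not tested. Of the 4553 member positions, 2910 reached 10 reads in at least 1 library, 1940 in at least 2, 892 in at least 4 and 45 in all 8. Among 8165 values with at least 10 reads at member positions, 90.6% were exactly 0% or 100%, against 89.6% over all positions on these chromosomes. At 170 member positions 1 library stood at 0% and another at 100%. The mean absolute difference between 2 libraries of a group over the member positions both had read was 8.71 to 14.0 percentage points, and between libraries of different groups it was 8.65 to 15.6, with a median of 11.9 in both cases. Libraries of a group were therefore about as far apart at these genes as libraries of different treatments.

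Gene ends and gene bodies differed in level in every group. The 8 kept ends averaged 1.0% to 21.4% over the libraries, with a median of 1.77%, beside a median of 2.63% over the 15361 kept ends of all genes. Of the member ends, 7 of 8 averaged under 20%, beside 74.2% of ends of all genes. The 9 kept bodies averaged 8.57% to 78.9%, with a median of 43.6%, beside 61.7% over 15861 bodies of all genes. The spread over the 8 libraries, as a median SD, was 1.88 points at member ends and 12.9 points in member bodies, beside 3.26 and 12.5 points over all genes. The 95% Wilson interval of a single library's level was at most 11.3 points wide for ends and 8.74 points for bodies, counting error only, since PCR reads are not independent molecules.

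**Figure D1:**
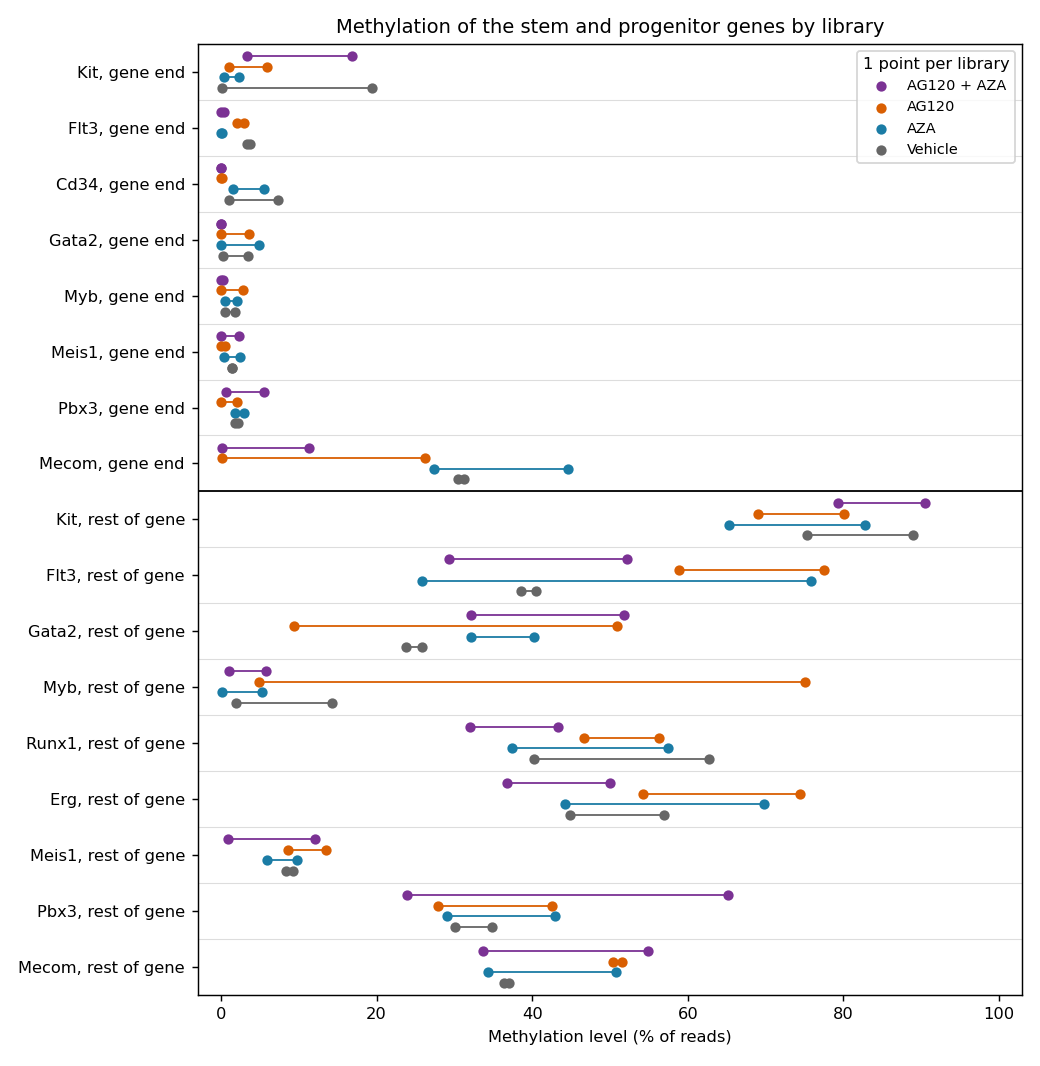
Methylation level (percent of reads) of the 17 kept units in each of the 8 libraries, gene ends above the black line and gene bodies below it, with 1 point per library and a line joining the 2 libraries of a group. Most ends lie near 0 in every group, while the ends of Mecom and Kit and most bodies spread widely within a group.

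Among the receptors and surface markers, the Kit end (chr5:75573987-75575486) showed the widest spread of the 7 low ends. Its level was 3.33% and 16.8% in the combination, 1.0% and 5.87% in AG120, 0.391% and 2.34% in AZA and 19.4% and 0.137% in Vehicle. The 2 Vehicle libraries held both the highest and the lowest value, so the groups overlapped in each comparison with Vehicle. Most methylated reads lay at -451 to -395 bp from the start. At position 75574572 the combination replicate 2 had 164 of 164 reads methylated, AG120 replicate 2 had 100 of 149, Vehicle replicate 1 had 70 of 233 and Vehicle replicate 2 had 0 of 248. In the 1-kb tile that begins just after the Kit start, chr5:75575001-75576000, all 8 libraries stood at 0%. The body of Kit was the most methylated unit of the members, at 79.2% and 90.5% in the combination, 69.1% and 80.1% in AG120, 82.8% and 65.3% in AZA and 88.9% and 75.4% in Vehicle. A tile in the middle of it, chr5:75628001-75629000, was at 100% in all 8 libraries.

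The Flt3 end (chr5:147399990-147401489), which a gene model named Gm26597 also overlaps, had 0.435% and 0% in the combination, 3.01% and 2.05% in AG120, 0% and 0.141% in AZA and 3.38% and 3.72% in Vehicle. The 4 libraries with AZA were all lower than the 4 without it. Of the reads behind the values of 0, 0 of 2678 in combination replicate 2 allows up to 0.112% and 0 of 2895 in AZA replicate 1 allows up to 0.104%. These limits take all calls as independent, which they are not. The methylated reads sat at a few positions, most of them methylated in a single library, although 147400191 and 147400273 each were so in 2. Of the 96 positions of this end, those with at least 10 reads numbered 26 and 22 in the combination and 22 and 19 in AG120. In AZA they numbered 23 and 29, and in Vehicle 42 and 34. A library without a methylated read at a position may thus not have read it. AG120 replicate 1 owed 101 of its 112 methylated reads to position 147400237, and AG120 replicate 2 had its 24 at 147400191. Vehicle replicate 1 had 78 of 78 reads methylated at 147400282 and 53 of 255 at 147400333, where AG120 replicate 2 had 0 of 52 and 0 of 18. Vehicle replicate 2 had 73 of 142 at 147400325, 71 of 232 at 147400191 and 37 of 73 at 147400591. The last of these is a CpG upstream of the start, printed in capitals above. The body of Flt3 stood at 29.3% and 52.2% in the combination, 58.8% and 77.5% in AG120, 75.8% and 25.8% in AZA and 38.5% and 40.5% in Vehicle, so both AG120 libraries were above both Vehicle libraries and above both combination libraries.

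The Cd34 end (chr1:194937821-194939320) had no methylated read in the combination, with 0 of 1351 and 0 of 1028 reads. These allow up to 0.222% and 0.292% if all calls are taken as independent, which they are not. It had 0.0799% and 0% in AG120, 1.54% and 5.52% in AZA and 7.30% and 1.08% in Vehicle. The 4 libraries with AG120 were all lower than the 4 without it. Vehicle replicate 1 had 89 methylated reads, all at position 194938850, 29 bp after the start, where 89 of 89 reads were methylated and combination replicate 1 had 0 of 164. AZA replicate 2 had 76 of 241 at 194938926, AZA replicate 1 had 53 of 141 at 194938950, and Vehicle replicate 2 had 12 of 73 at 194938989 and 5 of 19 at 194938941. At none of these 5 positions did another library of the 8 have a methylated read, but no library read every position of this end. Of its 41 positions, those with at least 10 reads numbered 11 and 9 in the combination and 18 and 12 in AG120. In AZA they numbered 19 and 20, and in Vehicle 15 and 23. A library without a methylated read at a position may thus not have read it.

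**Figure D2:**
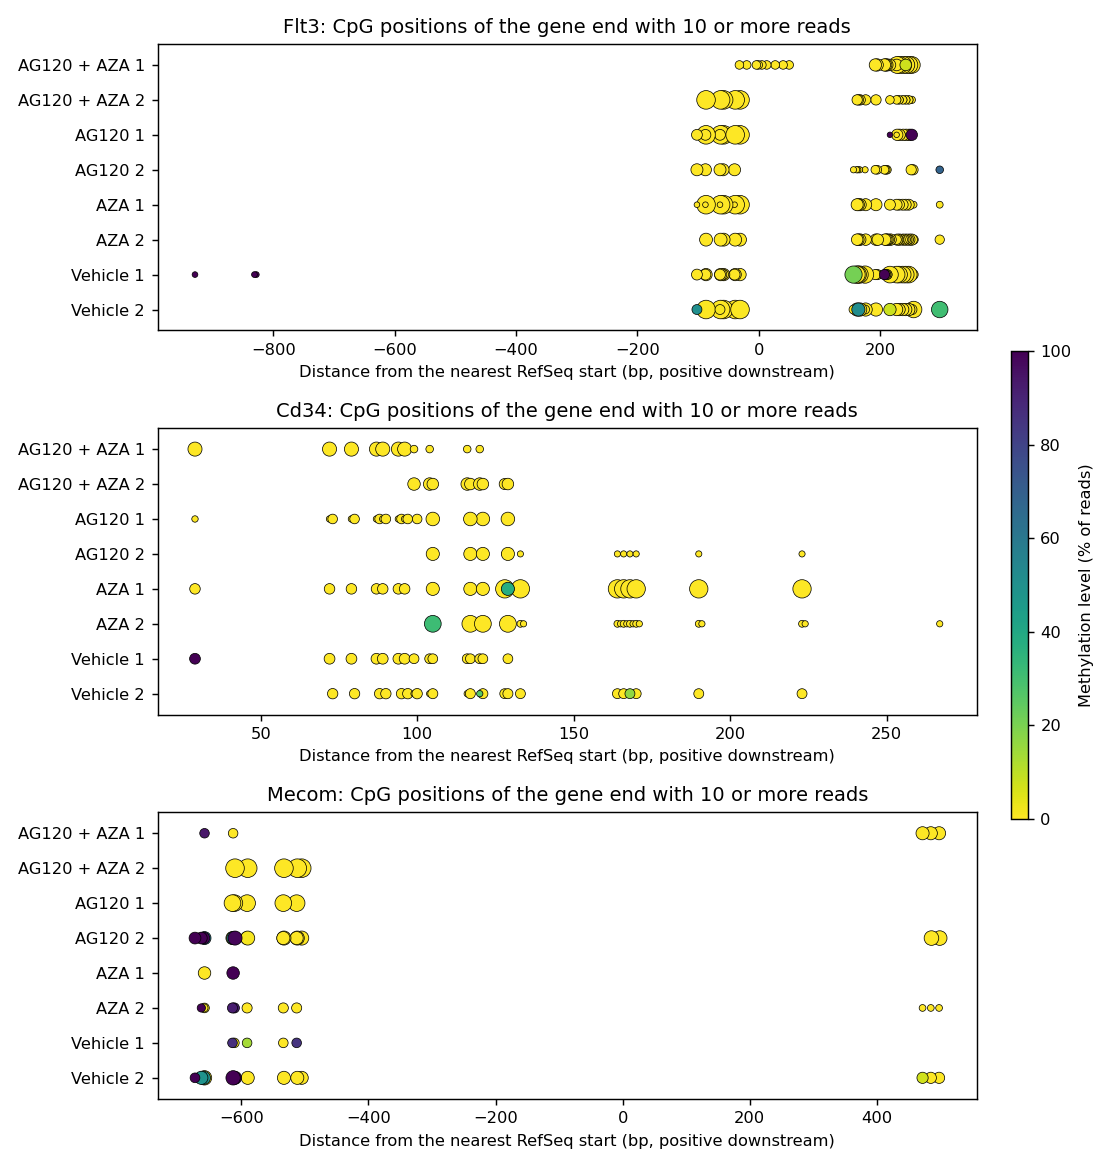
CpG positions of the Flt3, Cd34 and Mecom ends with at least 10 reads, by distance from the nearest RefSeq start in bp, with 1 row per library, colour for the methylation level and point area growing with reads. Methylated positions (dark) are few at Flt3 and Cd34, mostly differ between libraries and stand beside positions at 0%, whereas at Mecom they recur within a short stretch before the start.

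At the 8 ends together, 54 of 64 pairs of an end and a library held a methylated read, and 38 held at least 20. In 23 of those 38, over 50% of the methylated reads came from 1 position. Over all 38, the position with the most methylated reads had a median share of 80%. In these 38, a median of 3 positions held a methylated read. The methylated reads of an end in 1 library thus mostly lay at very few CpG positions. At the Mecom end this varied by library. Methylated reads lay at 7 of 17 positions read in AG120 replicate 2 and 7 of 20 in Vehicle replicate 2, but at 2 of 14 in AZA replicate 1.

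Among the transcription factors, the Gata2 end (chr6:88192891-88194390), overlapped by Gm38708, had 0% in both combination libraries, 0% and 3.66% in AG120, 4.87% and 0% in AZA and 0.213% and 3.43% in Vehicle. AG120 and AZA each had 1 library at 0 and 1 above both combination libraries. The body of Gata2 had 51.8% and 32.1% in the combination, 9.43% and 50.9% in AG120, 40.3% and 32.2% in AZA and 25.9% and 23.8% in Vehicle. Both combination libraries and both AZA libraries were above both Vehicle libraries, while the AG120 libraries lay on either side of them. Gata2 had 8 tiles of 1 kb read in all libraries, and they alternated over a few kilobases. The tile chr6:88196001-88197000, between the 2 starts, had 78.7% to 100%, the tile chr6:88202001-88203000, inside the gene, had at most 0.221%, and the tile of the second start, chr6:88198001-88199000, had 58.5% in AZA replicate 1 and 0.727% to 7.31% in the other 7 libraries. Just before it, chr6:88197001-88198000 had 4.22% and 87.0% in the combination, 0% and 11.6% in AG120, 46.9% and 61.9% in AZA and 31.9% and 17.2% in Vehicle, so the 2 combination libraries held nearly the whole range between them.

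**Figure D3:**
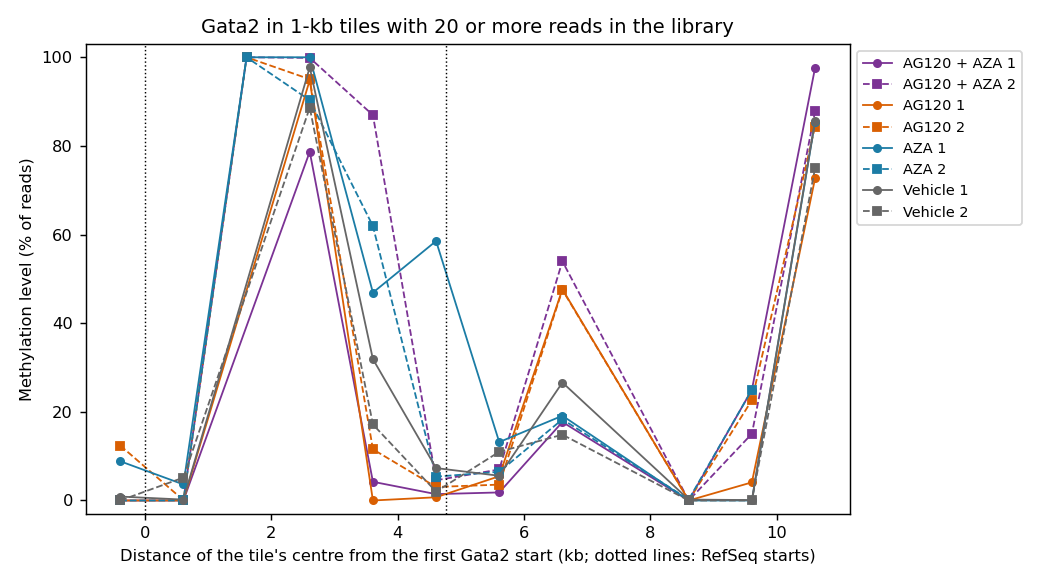
Methylation level of Gata2 in 1-kb tiles with at least 20 reads in the library, against the distance of the tile's centre from the first start in kb, with 1 line per library and dotted lines at the RefSeq starts. The lines mostly rise and fall at the same tiles and spread most in the tile before the second start.

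The Myb end (chr10:21160485-21161984) had 0.0725% and 0.222% in the combination, 0% and 2.86% in AG120, 2.05% and 0.524% in AZA and 0.515% and 1.76% in Vehicle. Both combination libraries were below both AZA libraries and both Vehicle libraries. The body of Myb had 5.77% and 1.09% in the combination, 4.86% and 75.0% in AG120, 5.30% and 0.165% in AZA and 1.93% and 14.3% in Vehicle. The value of 75.0% in AG120 replicate 2 came from the tile chr10:21127001-21128000, where this library had 1945 of its 2429 reads at a level of 93.7%. The AZA libraries and Vehicle replicate 1 had 0 reads in that tile, and without it AG120 replicate 2 stood at 0% and AG120 replicate 1 at 0.350%. The tile's level was 85.9% to 100% in the 5 libraries that read it, and AG120 replicate 2 held most of its reads.

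Runx1 and Erg, both read only inside the gene, lay in the middle range. The Runx1 body (chr16:92601966-92825574), which Gm30281 overlaps, had 43.4% and 32.0% in the combination, 56.3% and 46.6% in AG120, 57.4% and 37.5% in AZA and 62.8% and 40.2% in Vehicle. Both combination libraries were below both AG120 libraries. Its level over the gene ran from 0% to 4.0% in the tile of the proximal start to 86.2% or more in all libraries of the tile chr16:92605001-92606000. In the tile chr16:92644001-92645000 it had 99.2% and 0% in the combination, 99.2% and 100% in AG120, 100% and 60.4% in AZA and 91.8% and 72.7% in Vehicle. The Erg body (chr16:95359669-95586100) had 50.02% and 36.8% in the combination, 54.3% and 74.4% in AG120, 69.8% and 44.2% in AZA and 56.9% and 44.8% in Vehicle. Both AG120 libraries were above both combination libraries, and the other groups overlapped. The tile after the most downstream Erg start, chr16:95458001-95459000, was at 0% in all 8 libraries.

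Of the HOX partners, Meis1 had a low end and a low body. Its end (chr11:19019152-19020651) had 0.0207% and 2.31% in the combination, 0.521% and 0.0274% in AG120, 2.45% and 0.429% in AZA and 1.44% and 1.47% in Vehicle. The body, which holds the RefSeq start and overlaps Gm16141, had 0.855% and 12.1% in the combination, 8.61% and 13.5% in AG120, 9.80% and 5.86% in AZA and 8.40% and 9.32% in Vehicle. Combination replicate 2 stood apart in the tile chr11:19015001-19016000, with 66.6%, where the other 7 libraries had at most 0.680%. Single tiles inside the gene were higher, and chr11:19009001-19010000 had 94.2% in AZA replicate 2, against 0% to 29.0% in the other 7 libraries. The Pbx3 end (chr2:34371546-34373045) had 5.60% and 0.593% in the combination, 0.0195% and 2.01% in AG120, 2.95% and 1.84% in AZA and 1.87% and 2.20% in Vehicle. Its highest value came from 3 neighbouring positions of combination replicate 1, among them 206 of 206 reads at 34372323. The Pbx3 body had 23.9% and 65.1% in the combination, 28.0% and 42.6% in AG120, 43.0% and 29.0% in AZA and 34.8% and 30.1% in Vehicle, and the combination again held both extremes.

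Mecom, which has a long and a short transcript, had the only kept end with a mean above 20%. That end (chr3:30509260-30510759) had 11.3% and 0.201% in the combination, 0.0833% and 26.2% in AG120, 44.6% and 27.4% in AZA and 31.3% and 30.5% in Vehicle. The 4 libraries with AG120 were all lower than the 4 without it. Methylated reads lay at 472 bp and at -673 to -513 bp from the longest transcript's start. At position 30510369 AG120 replicate 2 had 162 of 164 reads methylated and Vehicle replicate 2 had 140 of 140, while combination replicate 2 had 0 of 397. At position 30510373 AZA replicate 2 had 70 of 76 and Vehicle replicate 1 had 58 of 67, while AG120 replicate 1 had 0 of 238 and AG120 replicate 2 had 0 of 141. In the tile chr3:30510001-30511000, which holds the stretch before the start, the level was 37.4% and 0.201% in the combination, 0.0834% and 30.6% in AG120, 44.9% and 30.6% in AZA and 33.7% and 37.1% in Vehicle. There combination replicate 1, on 182 reads, was above both Vehicle replicate 1 and AZA replicate 2, so libraries with and without AG120 overlapped in that tile. The window on the short transcript's start (chr3:30012705-30014204), inside the gene, had 48.4% and 16.4% in the combination, 6.22% and 4.44% in AG120, 15.6% and 4.15% in AZA and 2.02% and 10.1% in Vehicle, so there the combination libraries were the 2 highest. The body of Mecom, which 3 other gene models overlap, had 54.9% and 33.7% in the combination, 50.3% and 51.6% in AG120, 50.8% and 34.3% in AZA and 36.3% and 37.0% in Vehicle.

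In tiles of 1 kb, 60 member tiles were read in all 8 libraries, 28 of them with a mean level under 20%, 14 over 80% and 18 between. The range over the 8 libraries exceeded 50 points in 18 tiles and stayed under 10 points in 20. Within 1 kb of a RefSeq start, 14 of 15 tiles averaged under 20%, the exception being the Mecom tile chr3:30510001-30511000, and beyond 10 kb 3 of 28 did and 13 averaged over 80%. The low tiles far from a start were in Flt3, Runx1 and Erg. The Flt3 tile chr5:147366001-147367000 had at most 2.04% in any library although neighbouring tiles that could be read were mostly over 90%.

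**Figure D4:**
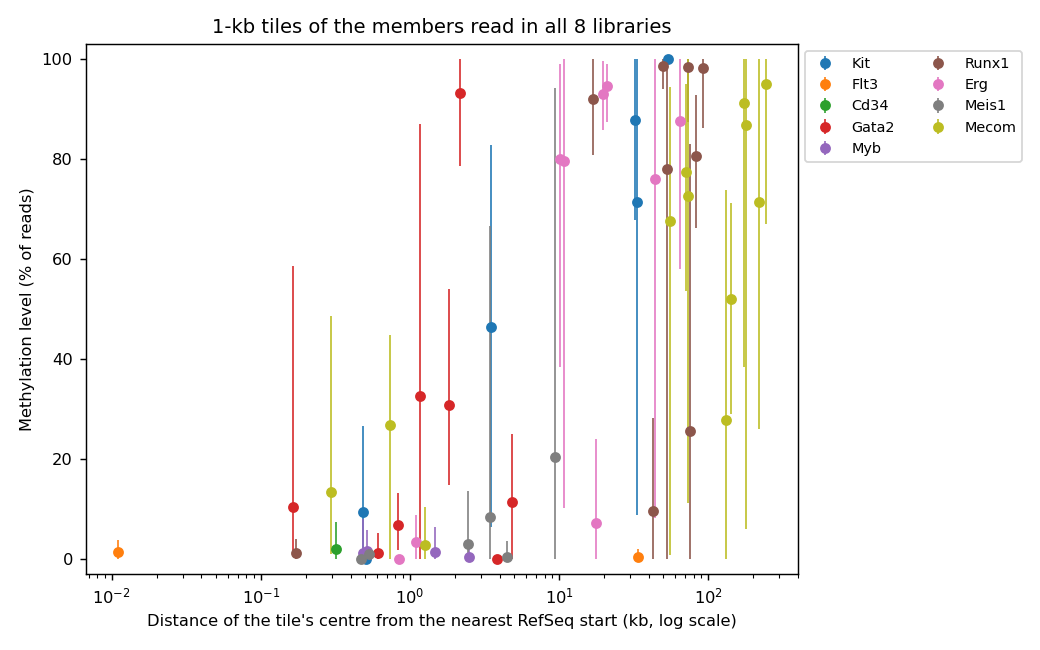
Mean methylation level of 57 member tiles of 1 kb read in all 8 libraries (points) with the lowest and highest library (bars), against distance from the nearest RefSeq start in kb on a log scale. Tiles within 1 kb of a start lie mostly near 0, and the 3 tiles of Pbx3, which has no start in the table, are not drawn.

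Of the 45 single positions that every library read at least 10 times, 27 averaged under 20% and 9 over 80%, and 15 had a range above 50 points. The widest possible range, 100 points, was shared by 6 positions, 2 in Erg and 4 in Kit. At Erg position 95469258 the level was 96.9% and 8.0% in the combination, 0% and 100% in AG120, and 100% in all AZA and Vehicle libraries, on 12 to 319 reads. The neighbouring Erg position 95469318 also stood at 0% in AG120 replicate 1 and at 100% in AG120 replicate 2. At Kit position 75578970 the level was 0% in both combination libraries, 93.2% and 0% in AG120, 100% and 11.1% in AZA and 66.7% and 0% in Vehicle. The other 3 Kit positions, 75578962, 75578984 and 75579000, lay close by and also had libraries of a group far apart. The AG120 replicates thus differed by the full range at both Erg positions.

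Group differences were tested in 1 fit over all 34575 units, with edgeR's quasi-likelihood F-test, two-sided, and Benjamini-Hochberg adjustment over all of them. None of the 17 member units was called at a false discovery rate of 0.05 in any of the 7 comparisons, and the background was 0.0% in each of them, because the test called 0 units of any gene. At an unadjusted p under 0.05, member units numbered 1 of 17 in the combination against Vehicle (background 5.43%), 0 in AG120 against Vehicle (background 3.6%) and 1 in AZA against Vehicle (background 2.48%). They numbered 1 in the combination against AZA (background 5.04%), 0 in the combination against AG120 (background 4.36%), and 1 each for the average effects of AG120 (background 5.22%) and AZA (background 3.59%). These shares are near the background. With 2 libraries of a group, groups that do not overlap are common, so their counts are given beside the share over all units. Whether fewer cells with methylated DNA or a lower level per cell lay behind a difference cannot be told apart in bulk DNA.

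In the combination against Vehicle, 1 of 17 member units was higher without overlap (background 18.0%) and 5 were lower (background 19.1%). The higher unit was the Gata2 body, 17.1 points above Vehicle, and the lower ones were the ends of Cd34, Flt3, Gata2, Mecom and Myb. The units with the smallest p were the Cd34 end, with 0% ± 0 in the combination and 4.19% ± 4.40 in Vehicle (SD, n = 2 each; edgeR adjusted p = 0.874), and the Flt3 end, with 0.218% ± 0.308 and 3.55% ± 0.245 (edgeR adjusted p = 0.951). The Cd34 difference, -4.19 points, was -1.08 points without Vehicle replicate 1 and -7.30 without Vehicle replicate 2. Member ends differed by a median of -1.41 points, beside -0.177 over the ends of all genes, and member bodies by 1.21 points, beside 3.11 over all bodies.

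In AG120 against Vehicle, 2 of 17 member units were higher without overlap (background 17.8%), namely the bodies of Mecom and Flt3, and 4 were lower (background 16.1%), namely the ends of Cd34, Meis1, Mecom and Flt3. The Cd34 end had 0.0400% ± 0.0565 in AG120 and 4.19% ± 4.40 in Vehicle (edgeR adjusted p = 1.0), a difference of -4.15 points that was -1.04 without Vehicle replicate 1 and -7.26 without Vehicle replicate 2. The Mecom body had 51.0% ± 0.863 in AG120 and 36.7% ± 0.481 in Vehicle, a difference of 14.3 points (edgeR adjusted p = 1.0). Member ends differed by a median of -1.10 points, beside -0.0647 over all ends, and member bodies by 5.33 points, beside 2.34 over all bodies.

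In AZA against Vehicle, 1 of 17 member units was higher without overlap (background 14.5%), the Gata2 body, and 1 was lower (background 18.3%), the Flt3 end. The Flt3 end had 0.0705% ± 0.0997 in AZA and 3.55% ± 0.245 in Vehicle (SD, n = 2 each; edgeR adjusted p = 1.0). The Myb body had 2.73% ± 3.63 in AZA and 8.13% ± 8.77 in Vehicle, a difference of -5.40 points (edgeR adjusted p = 1.0), and this value rests on Vehicle replicate 2, without which the difference was 0.80 points (-11.6 without Vehicle replicate 1 and -2.84 without AZA replicate 2). In the tile chr10:21127001-21128000 of the Myb body, Vehicle replicate 2 had 693 reads at 85.9%. Vehicle replicate 1 and the AZA libraries had 0 reads there. Without that tile the body stood at 7.24% in Vehicle replicate 2, against 14.3% with it. Member ends differed by a median of 0.0655 points and member bodies by 3.53, beside -0.140 and 0 over all genes.

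**Figure D5:**
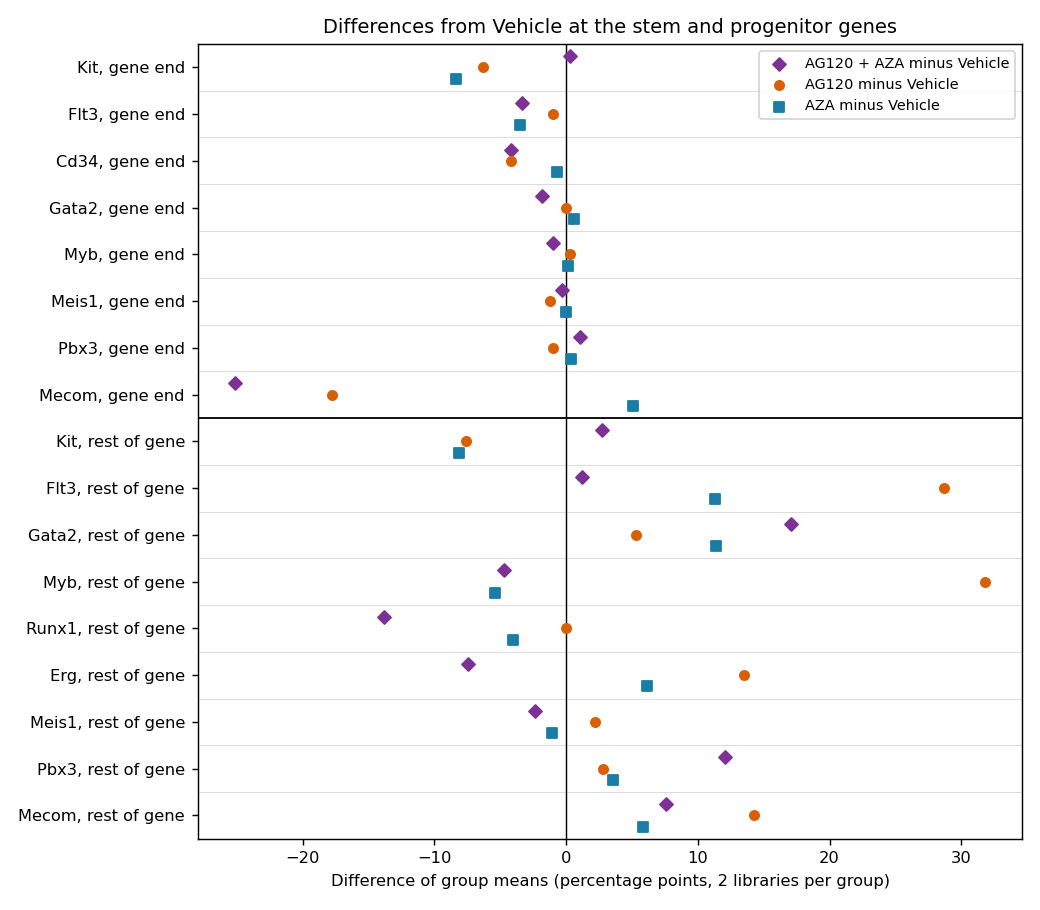
Difference of the group mean from the Vehicle mean in percentage points at each of the 17 kept units, for the combination (diamonds), AG120 (circles) and AZA (squares), which share the 2 Vehicle libraries. At the ends of Cd34 and Flt3 the differences are under 5 points, at the Mecom end they reach -25.1 points, and in the bodies they fall on both sides of 0.

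The combination was also set against each single drug. Against AZA, 1 of 17 member units was higher without overlap (background 18.4%), the Kit end, and 3 were lower (background 15.9%), the ends of Cd34, Mecom and Myb. The Cd34 end had 0% ± 0 in the combination and 3.53% ± 2.82 in AZA (edgeR adjusted p = 0.958), a difference of -3.53 points that was -1.54 without AZA replicate 2 and -5.52 without AZA replicate 1. The Mecom end had 5.75% ± 7.85 in the combination and 36.0% ± 12.2 in AZA (edgeR adjusted p = 1.0). Against AG120, 0 of 17 were higher without overlap (background 14.4%) and 4 were lower (background 15.9%), the end and body of Flt3 and the bodies of Erg and Runx1. The Flt3 end had 0.218% ± 0.308 in the combination and 2.53% ± 0.680 in AG120 (edgeR adjusted p = 1.0). The Erg body had 43.4% ± 9.39 in the combination and 64.4% ± 14.2 in AG120, a difference of -21.0 points (edgeR adjusted p = 1.0), which turned to 13.8 points when only positions read at least 5 times in all 8 libraries were summed and was -10.9 points without AG120 replicate 2.

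With each drug averaged over the other, 4 libraries stood against 4. For AG120, 0 of 17 member units were higher without overlap (background 2.54%) and 2 were lower (background 2.04%), the ends of Cd34 and Mecom. The Cd34 end had 0.02% ± 0.04 with AG120 and 3.86% ± 3.04 without (SD, n = 4 each; edgeR adjusted p = 0.820), lower in 4 of 4 libraries, and the difference of -3.84 points was -2.29 without Vehicle replicate 1. The Mecom end had 9.44% ± 12.3 with AG120 and 33.4% ± 7.61 without (edgeR adjusted p = 1.0), although the groups overlapped in the tile that holds its methylated stretch. For AZA, 0 were higher without overlap (background 0.966%) and 1 was lower (background 1.5%), the Flt3 end, with 0.144% ± 0.205 with AZA and 3.04% ± 0.721 without (edgeR adjusted p = 1.0). The Myb body had 3.08% ± 2.86 with AZA and 24.0% ± 34.4 without (edgeR adjusted p = 1.0), and the groups overlapped. Its difference of -21.0 points rests on AG120 replicate 2, without which it was -3.41 points. The AZA libraries had 0 reads in the tile chr10:21127001-21128000, which held most reads of AG120 replicate 2. Without that tile the Myb body had 5.09% and 0% in the combination and 5.30% and 0.165% in AZA. In AG120 it then had 0.350% and 0%, and in Vehicle 1.93% and 7.24%. DESeq2's Wald test placed the Cd34 end past the threshold for AG120 (adjusted p = 0.00447; background 2.75% of units called) and the Flt3 end for AZA (adjusted p = 0.00881; background 1.61%). edgeR's likelihood ratio test did the same for Cd34 (adjusted p = 0.00700; background 1.56%) and Flt3 (adjusted p = 0.0348; background 0.986%). By DESeq2 the Cd34 end also passed in the combination against Vehicle (background 2.35%) and against AZA (background 2.52%). Each of these tests called 1 of the 17 member units in the comparison. Windows on the RefSeq starts and tiles were fitted with the quasi-likelihood test only. In each comparison it called 0 of 12923 windows and 0 of 45932 tiles of any gene, members included. These fits therefore cannot check the calls of the other tests. At no member unit were both libraries given a drug above both without it in the absence of the other drug and both below in its presence, or the reverse, beside 4.47% of all units for AG120 and 4.92% for AZA. Group means did differ in sign at some units. The Flt3 body differed by 28.7 points in AG120 against Vehicle, without overlap, and by -10.1 points in the combination against AZA, where the libraries overlapped.

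The genes around the members in the same pathways were read in the same fit, and 0 of their units were called in any comparison. Of 28 partners and regulators of the members all 28 were measured, in 58 units, of which 6 were higher and 14 lower without overlap in the combination against Vehicle (10.3% and 24.1%, beside 18.0% and 19.1% of all units). The units with the smallest p were the Zfpm1 end, a gene whose product binds GATA factors, with 0% and 0.0249% in the combination and 1.25% and 1.52% in Vehicle, and the body of Myc, a growth regulator, with 0.0293% and 0% in the combination and 1.69% and 1.39% in Vehicle. Of 26 other stem and progenitor genes 22 were measured, in 36 units, 6 higher and 7 lower without overlap (16.7% and 19.4%). The body of Hmga2, a chromatin protein of fetal stem cells, had 61.8% and 61.8% in the combination and 19.2% and 33.2% in Vehicle (edgeR adjusted p = 0.874). The single drugs were also above Vehicle at Hmga2, with 55.8% and 53.9% in AG120 and 39.9% and 34.2% in AZA. The Bmi1 end had 0% and 0.00864% in the combination and 1.67% and 0.579% in Vehicle.

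Markers of other cell types were sparsely read, and 0 of their units were called in any comparison. The units named below had the smallest p of their list in the combination against Vehicle. Measured were 5 of 12 mature myeloid genes, 8 of 12 lymphoid, 4 of 10 erythroid and megakaryocytic and 9 of 10 stromal and endothelial genes, in 6, 12, 5 and 12 units. In the combination against Vehicle, the mature myeloid units were higher without overlap in 1 case and lower in 0 (16.7% and 0%, beside 18.0% and 19.1% of all units). The lymphoid units numbered 1 and 1 (8.33% each), the erythroid and megakaryocytic units 3 and 1 (60% and 20%), and the stromal and endothelial units 3 and 0 (25% and 0%). The body of Mpo, the granule enzyme myeloperoxidase, had 75.6% and 96.2% in the combination and 49.6% and 45.8% in Vehicle. The Cebpe end, of a granulocyte factor, had 74.9% and 5.42% against 10.5% and 0% (30 reads), so the groups overlapped. At Cebpe the AG120 libraries had 61.9% and 83.0%, and the AZA libraries 2.26% and 99.2%. The body of Cd8a, a T cell coreceptor, had 99.7% and 76.9% (26 reads) in the combination and 29.5% and 23.7% in Vehicle. The single drugs were also above Vehicle there, with 100% and 87.7% in AG120 and 84.9% and 74.7% in AZA. The body of Cd4 had 64.2% and 93.9% in the combination against 100% and 95.7% in Vehicle. Among the others, the Vwf body had 74.3% and 70.8% in the combination and 68.0% and 43.4% in Vehicle, the Itga2b end 3.71% and 2.79% against 0% and 1.25%, the Kdr body 79.8% and 37.0% against 33.9% and 38.3%, and the Pdgfra flank 0% and 0% against 6.76% and 0%. Whether a change in the cells present had a part in the members' values was not tested.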

How the data were processed

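The authors deposited raw counts of methylated and unmethylated reads at each CpG cytosine of each library, not normalized, per the file headers. The submitters' processing notes name the mm10 build, Bismark 0.22.3, Trim Galore 0.4.4, edgeR 3.32 and, among others, SAMtools 1.4.1, and deduplication is not given in the sources used here. Counts were summed per unit of every RefSeq gene (GRCm38.p6) and fitted with edgeR 4.0.16 in R 4.3.3, where each library had its own coverage term and each group its own methylation level. The robust quasi-likelihood F-test was used over all units at a false discovery rate of 0.05. Alternatives used limma 3.58.1, DESeq2 1.42.0, edgeR's likelihood ratio test, other coverage minimums (10 and 50 reads), other windows, shared positions, a cap of 50 reads per position, and each library left out. The script was tested on simulated data. A level is the share of methylated among all reads. All member units were described, and a test was printed for the 2 with the smallest p in each comparison, for the 2 of each other list in the combination against Vehicle, and single positions by the widest range (3 by rule, 6 because of a tie). The members and lists were chosen with earlier results of these data known. The column names of the combination's counts were matched to its labels. Same-numbered libraries did not deviate together (correlations of -0.0116 to 0.00974 over 6 pairs of groups), so the fit has no replicate block. Nothing says that replicates came from separate animals, so p-values measure only the spread between these libraries, which may be technical. Upper limits of a count of 0 are 3 reads of the total. They take all calls as independent, although neighbouring CpGs can share reads and PCR reads are not independent molecules, so the true limits may be higher.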

Additional observations from a re-analysis of the deposited data

How the results depend on the processing

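The quasi-likelihood test called 0 units in all 7 comparisons, with 1244 (AG120 against Vehicle), 859 (AZA against Vehicle), 1878 (combination against Vehicle), 1741 (combination against AZA), 1507 (combination against AG120), 1805 (average AG120) and 1241 (average AZA) at an unadjusted p under 0.05. In the same order, the likelihood ratio test called 162, 87, 537, 542, 532, 538 and 341 units and DESeq2 called 348, 168, 813, 873, 833, 914 and 557. On shared positions the counts were 5, 1, 6, 5, 0, 6 and 0, of 9496 units. Leaving out 1 library gave 0 to 3 calls for the average effect of AG120 (3 without AG120 replicate 1) and 0 for the other comparisons. limma, the coverage minimums, the cap, the windows and the tiles gave 0. The fit with a replicate block gave 0 calls in every comparison. The fit without a block also gave 0, so these counts cannot show whether same-numbered libraries belong together. Of 238 alternative values of the 14 printed member differences, 230 kept their direction and side of the threshold. Past the threshold came the Cd34 end by DESeq2 in the combination against AZA (adjusted p = 0.0423) and against Vehicle (adjusted p = 0.0459), beside the average effects given above. The Erg body in the combination against AG120 turned to 13.8 points on shared positions, and the Myb body in AZA against Vehicle ranged from -11.6 points (without Vehicle replicate 1) to 0.80 points (without Vehicle replicate 2) when 1 library was left out. In the Myb body, Vehicle replicate 2 had 693 reads in a tile where Vehicle replicate 1 and the AZA libraries had 0 reads. Beyond this, the cause of these changes was not tested, except that leaving out a library removes its reads. Only 2 of the 14 differences had a value on shared positions. Few positions were read in all libraries, which limits every comparison of a single gene.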
